A study of Brassica rapa with 18 samples.

Results

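MYB34 is a transcription factor of the R2R3-MYB family, and Brassica rapa carries several copies of its gene. The 4 identifiers Bra013000, Bra035954, Bra029349 and Bra029350 were taken as these copies, by identifier alone, from a table of 42186 features. Bra029349 and Bra029350 have adjacent identifiers. The deposited table names no genes. Of all 42186 identifiers, only 1 matched the RefSeq genes of the assembly CAAS_Brap_v3.01, and it was none of these 4. The assignment of the 4 identifiers to MYB34 is background that was not checked here.

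In Arabidopsis, MYB34 activates genes of indolic glucosinolate synthesis, the branch that turns tryptophan into sulphur-rich defence compounds. It acts there beside MYB51 and MYB122, with MYB34 most prominent in the root and MYB51 in the shoot. Its known targets in that species include the cytochrome P450 genes CYP79B2, CYP79B3 and CYP83B1, which carry out the first steps from tryptophan. Jasmonates, hormones of wounding and of attack by insects, are known to raise indolic glucosinolates in Arabidopsis and in Brassica leaves.

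Messenger RNA was sequenced from leaves of 10-day-old wild-type seedlings of R-o-18, an inbred line of Brassica rapa var. trilocularis. The seedlings were sprayed with 50 μM methyl jasmonate (MeJA) in water with 0.1% Tween-20, a detergent, or with a mock spray of water and Tween-20 alone. Leaves were taken after 10 min, 24 h or 72 h, and each of the 6 groups had 3 libraries that the labels call biological replicates. The labels do not say how many seedlings went into a library, and batch in the labels coincides with time, so MeJA and mock of one time share a batch, and times cannot be told apart from batches. Leaf markers could not be looked up, since the features carry no gene names. In whole leaves, fewer cells with a transcript and less of it per cell cannot be told apart.

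Library totals ran from 13505607 to 17796115 counts, so that 3 counts in a library were between 0.172 and 0.217 CPM (counts per 1000000 counts of a library, after scaling). Replicate 2 of MeJA 10 min stood apart. Over 22 features abundant at MeJA 24 h and nearly absent at mock 10 min, its median level was 3.96% of that at MeJA 24 h, against 0.239% in replicate 1 and 0.357% in replicate 3. Mock 10 min replicates 2 and 3 differed less from each other than any other replicate pair, with chi-square statistics per degree of freedom of 1.49 for them and 4.90 for the next pair. Tests of Bra029350 and Bra013000 that rest on MeJA 10 min are given also without its replicate 2. Those that rest on mock 10 min are given also with its replicates 2 and 3 summed into 1 library. Comparisons between copies are given also without that MeJA replicate and were not run with the mock libraries summed.

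The 4 copies were read very unevenly. Over the 18 libraries, Bra029350 had 3122 counts and was found in all 18, and Bra013000 had 379 counts in 6 libraries. Bra035954 and Bra029349 had 7 counts each, in 4 libraries each. Bra029350 and Bra013000 passed the filter on low counts, as did 26593 features in all, and the other 2 copies did not. How reads shared by near-identical copies were assigned is not given in the sources used here, so a low count of one copy may hold reads placed elsewhere or left out. Levels of different copies are not compared, because gene lengths were not at hand.

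**Figure D1:**
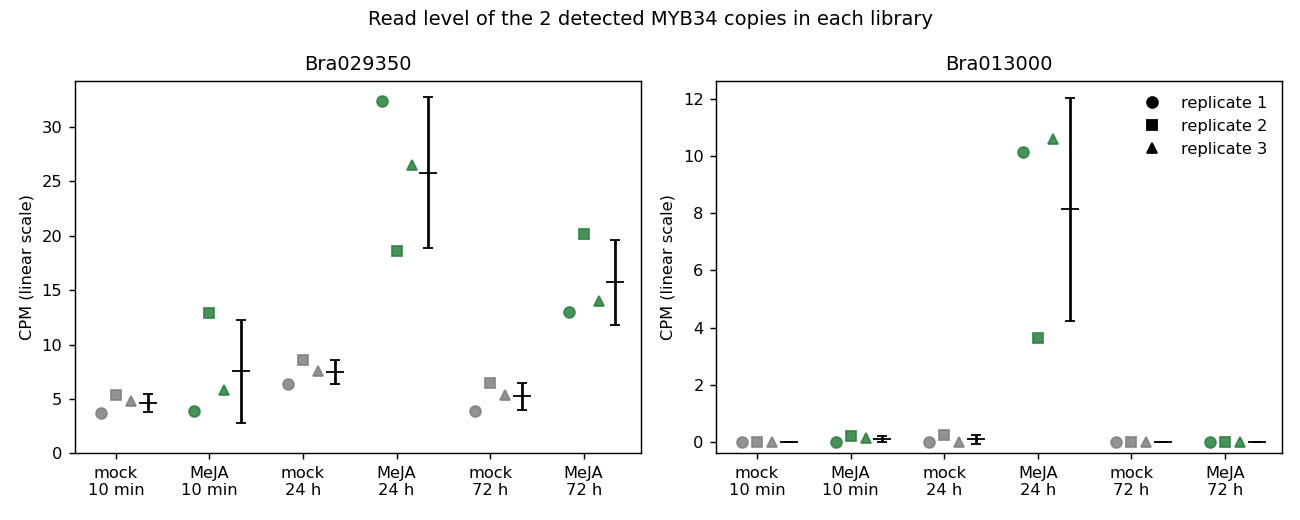
CPM of Bra029350 and of Bra013000 in each library (y axis, linear, with its own scale in each panel), by treatment and time (x axis). Points are single libraries, with circles, squares and triangles for replicates 1, 2 and 3, grey for mock and green for MeJA, and black marks are the mean and SD of 3 libraries. Bra029350 is above its mock level in all MeJA libraries at 24 h and 72 h, and Bra013000 rises above 1 CPM in the MeJA libraries of 24 h only.

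Bra029350 was transcribed in leaves without MeJA and rose about 3-fold 24 h and 72 h after MeJA. At 24 h it stood at 32.4, 18.6 and 26.5 CPM in MeJA replicates 1, 2 and 3, and at 6.39, 8.60 and 7.54 CPM in mock. Every MeJA library lay above every mock library, which held, in one direction or the other, for 36.8% of all features tested at 24 h. The MeJA mean was 25.8 ± 6.91 CPM (SD, n = 3) and the mock mean 7.51 ± 1.101 CPM. This was a log2 fold change of 1.78 (SE 0.32, 95% interval 1.12 to 2.44), or 3.44-fold, with an adjusted p of 0.000450 by edgeR's quasi-likelihood test, adjusted by the Benjamini-Hochberg method over all features tested. Of the 26593 features, 28.5% passed the threshold of 0.05 at 24 h in either direction. Among the 4098 that rose, 659 rose by more than Bra029350, and the median log2 fold change of these rises was 0.76.

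At 72 h, Bra029350 stood at 13.0, 20.1 and 14.0 CPM in MeJA replicates 1, 2 and 3. The mock libraries had 3.92, 6.43 and 5.40 CPM. The groups again did not overlap, as in 33.5% of all features tested at 72 h. The MeJA mean was 15.7 ± 3.87 CPM (SD, n = 3) and the mock mean 5.25 ± 1.26 CPM. The log2 fold change was 1.58 (SE 0.33, 95% interval 0.90 to 2.27), or 2.99-fold (edgeR adjusted p = 0.00627). At this time 9.74% of features were called, and 265 of the 1625 rises were larger than that of Bra029350. Both calls held when any 1 library was left out, with an adjusted p of at most 0.00425 at 24 h and 0.0398 at 72 h.

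No rise of Bra029350 was called at 10 min. It stood at 3.90, 12.9 and 5.86 CPM in MeJA replicates 1, 2 and 3 and at 3.70, 5.32 and 4.80 CPM in mock, so that replicate 1 of MeJA lay within the mock range and replicate 2 far above it. The log2 fold change was 0.71 (SE 0.35, 95% interval -0.02 to 1.45; edgeR adjusted p = 0.234), where 7.13% of features were called. Without MeJA replicate 2, the library that also held more of the transcripts abundant at MeJA 24 h, the log2 fold change was 0.08 (edgeR adjusted p = 0.934). With mock replicates 2 and 3 summed it was 0.76 (edgeR adjusted p = 0.329).

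**Figure D2:**
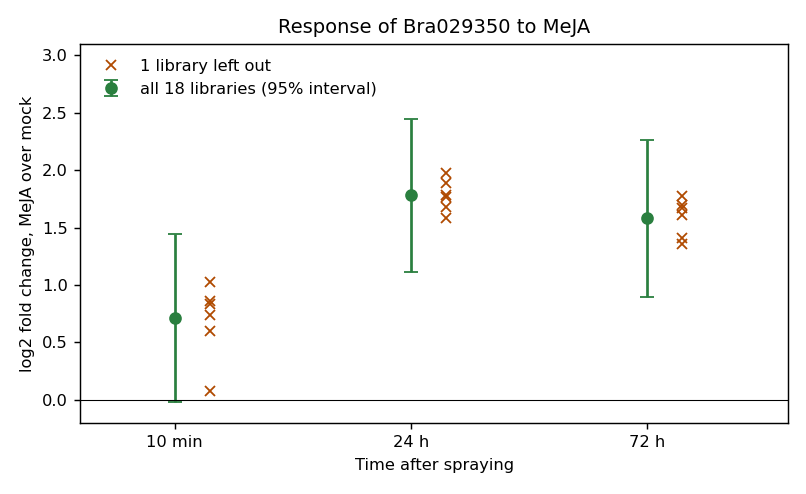
log2 fold change of Bra029350 between MeJA and mock (y axis) at each time after spraying (x axis). Green points with bars are the values and 95% intervals from all 18 libraries, and crosses are the values with 1 library of the comparison left out. The intervals lie above 0 at 24 h and 72 h and reach -0.02 at 10 min, where the lowest cross, at 0.08, is the value without MeJA 10 min replicate 2.

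Whether the response of Bra029350 changed between times was tested directly. The log2 response at 24 h exceeded that at 10 min by 1.07 (SE 0.47, 95% interval 0.08 to 2.05; edgeR adjusted p = 0.250), where 2.88% of features were called. This difference was 1.70 and passed the threshold without MeJA 10 min replicate 2 (edgeR adjusted p = 0.0137), and was 1.02 with mock 10 min replicates 2 and 3 summed (edgeR adjusted p = 0.360). From 24 h to 72 h the log2 response differed by -0.20 (SE 0.45, 95% interval -1.15 to 0.75; edgeR adjusted p = 0.887; 1.82% of features called). The interval spans both a lower and a higher response at 72 h. Between 10 min and 72 h the difference was 0.87 (SE 0.48; edgeR adjusted p = 0.469; 0.301% of features called). Without MeJA 10 min replicate 2 it was 1.503 (edgeR adjusted p = 0.108), and with mock 10 min replicates 2 and 3 summed it was 0.82 (edgeR adjusted p = 0.594).

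In mock-sprayed leaves Bra029350 ranged from 3.70 to 8.60 CPM over the 9 libraries. Its mock means were 4.61 ± 0.829 CPM (SD, n = 3) at 10 min, 7.51 ± 1.101 CPM at 24 h and 5.25 ± 1.26 CPM at 72 h. The difference between mock 24 h and mock 10 min was not called (log2 fold change 0.70, SE 0.35; edgeR adjusted p = 0.231; 6.25% of features called). Neither was that of 72 h against 24 h (log2 fold change -0.52, SE 0.34; edgeR adjusted p = 0.400; 3.65% called), nor that of 72 h against 10 min (log2 fold change 0.19, SE 0.35; edgeR adjusted p = 0.752; 19.7% called). With mock 10 min replicates 2 and 3 summed, the comparisons of 24 h and of 72 h with 10 min gave 0.74 and 0.23 (edgeR adjusted p = 0.317 and 0.749). Ordered by mean level, MeJA 24 h came first, followed by MeJA 72 h, MeJA 10 min, mock 24 h, mock 72 h and mock 10 min. MeJA 72 h and MeJA 10 min were the only neighbours in this order whose libraries did not overlap. They nearly touched, at 12.96 CPM for the lowest MeJA 72 h library and 12.89 CPM for MeJA 10 min replicate 2. The share of all features that do not overlap here was not computed. By a test added after the data were seen, MeJA-sprayed leaves had more Bra029350 at 24 h than at 10 min (log2 fold change 1.77, SE 0.32; edgeR adjusted p = 0.000574; 26.9% of features called), by 2.41 without MeJA 10 min replicate 2 (edgeR adjusted p = 1.00e-05). It was also higher at 72 h than at 10 min (log2 fold change 1.05, SE 0.32; edgeR adjusted p = 0.0214; 26% called), a call lost without MeJA 10 min replicate 1 or 3 or MeJA 72 h replicate 2 (edgeR adjusted p = 0.0922, 0.0772 and 0.107). Without MeJA 10 min replicate 2 this log2 fold change was 1.69 (edgeR adjusted p = 0.000920). The fall from 24 h to 72 h after MeJA was not called (log2 fold change -0.72, SE 0.30; edgeR adjusted p = 0.111; 16.7% called).

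Bra013000 was read almost solely in leaves taken 24 h after MeJA. There it had 146, 52 and 172 counts in replicates 1, 2 and 3, or 10.1, 3.65 and 10.6 CPM. The mock libraries of 24 h had 0, 4 and 0 counts. The groups did not overlap, as in 36.8% of all features tested at 24 h. Replicate 2, the lowest of the MeJA libraries for this copy, was also the lowest for Bra029350. The MeJA mean was 8.13 ± 3.89 CPM (SD, n = 3) and the mock mean 0.0868 ± 0.150 CPM. The fitted log2 fold change was 6.44 (SE 0.77, 95% interval 4.75 to 8.14, edgeR adjusted p = 0.000101), where 28.5% of features were called. On summed counts, 370 against 4, MeJA was 96.3-fold higher, with an exact 95% binomial interval from 37.3 to 355 that covers counting error only. Bra013000 passed the filter on low counts through its MeJA libraries of 24 h, and a copy that passes in this way has to differ at that time. With no such filter, over 36290 features, the log2 fold change was 6.44 and the edgeR adjusted p was 6.52e-06.

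This call at 24 h depended on the tool. DESeq2 gave a log2 fold change of 6.54 with an adjusted p of 0.0733 and an unadjusted p of 0.0230. By edgeR, with the filter on low counts kept, the call held without any 1 library. Such fits were not run without the filter, so they share the limit given above. Without mock replicate 2, which held all 4 mock counts, MeJA was at least 86.2-fold higher, taking 3 counts over the mock group as the floor; on leaving out mock replicate 1 or 3 the ratio was 63.1 or 64.9.

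At the other times Bra013000 was at or near 0. In MeJA 10 min it had 0, 3 and 2 counts in replicates 1, 2 and 3, and none in mock 10 min, a difference that was not called (edgeR adjusted p = 0.335) and that 5 counts cannot decide. The adjusted p was 0.602 by edgeR without MeJA 10 min replicate 2 and 0.403 with mock 10 min replicates 2 and 3 summed. At 72 h no library of either treatment held a count. In MeJA-sprayed leaves it was therefore at least 143-fold higher at 24 h than at 72 h, against a floor of 3 counts over the MeJA 72 h group, and the difference was called with no filter on low counts (edgeR adjusted p = 5.04e-06, a test added after the data were seen). Its rise after MeJA from 10 min to 24 h, likewise tested after the data were seen, was also called with no filter (edgeR adjusted p = 1.26e-05). With the filter it was called by edgeR (adjusted p = 0.000154, and 0.000526 without MeJA 10 min replicate 2) and not by DESeq2 (adjusted p = 0.0971). Bra013000 passed this filter through its MeJA libraries of 24 h, so the calls with the filter are no further support. Leaving out MeJA 10 min replicate 2 was not run without the filter. Of the features that passed the filter, 26.9% were called in this comparison and 16.7% in that of MeJA 72 h with MeJA 24 h. The bound against 72 h was 94.6 to 180 with 1 of these 6 libraries left out. A direct test of its response over mock at 24 h against that at 10 min gave a log2 difference of 2.50 (SE 11.4, edgeR adjusted p = 0.948, 2.88% of features called). With 5 counts in MeJA 10 min and none in mock 10 min, this test cannot decide. Its edgeR adjusted p was 0.961 without MeJA 10 min replicate 2 and 0.956 with mock 10 min replicates 2 and 3 summed. Whether its response over mock changed from 24 h to 72 h cannot be read from these counts (edgeR adjusted p = 1.00), because both treatments were at 0 at 72 h. The order of its levels has 1 clear step, between MeJA 24 h and every other group. Among the other 5 groups the ranges overlapped, with means from 0 to 0.115 CPM.

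Bra029349, whose identifier neighbours that of Bra029350, gave few reads where Bra029350 gave many. It had 1, 2 and 3 counts in replicates 1, 2 and 3 of MeJA 24 h, 1 count in mock 24 h replicate 2 and none elsewhere. On summed counts of 6 against 1, the ratio of MeJA to mock at 24 h was 6.25, with an exact 95% binomial interval from 0.758 to 287. Its 3 MeJA libraries of 24 h all held a count, but a difference was not detectable at this depth. In the same 3 libraries Bra029350 had 466, 265 and 429 counts.

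Bra035954 had no clear place in the series. It had 2 counts in MeJA 10 min replicate 3, 2 each in MeJA 24 h replicates 2 and 3, and 1 in mock 72 h replicate 2. No count was found in MeJA 72 h, mock 10 min or mock 24 h. No fold is given at 10 min or 72 h, where both groups had at most 3 counts. At 24 h, 4 counts against 0 gave a ratio of 1.39 with mock set to the floor of 3 counts. That ratio takes the 4 counts as exact, and it fell below 1 without mock replicate 1, 2 or 3, so no rise is read from it. Tested with no filter on low counts, neither of the 2 rarely read copies was called at any time, with edgeR adjusted p of 0.222 for Bra035954 and 0.293 for Bra029349 at 24 h. Of their 14 counts together, 12 came from MeJA libraries, a share that was not compared with that of other low-count features.

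**Figure D3:**
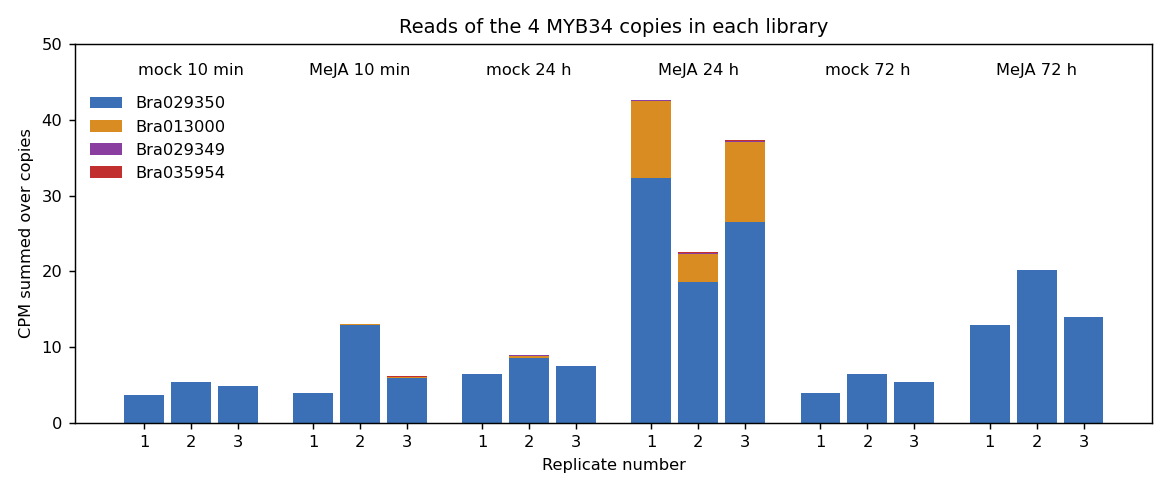
CPM summed over the 4 copies in each library (y axis), by group and replicate number (x axis), with a colour for each copy. Bra029350 makes up nearly all of the reads except in the 3 libraries of MeJA 24 h, where Bra013000 adds 16.2% to 28.4% of them.

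Reads summed over the copies were most abundant in MeJA 24 h, where Bra013000 held more of them than in mock. Summed over the copies, the level was 34.2 ± 10.4 CPM (SD, n = 3) in MeJA 24 h and 7.62 ± 1.27 CPM in mock 24 h. Of these reads, Bra013000 held 23.8%, 16.2% and 28.4% in MeJA 24 h replicates 1, 2 and 3, with exact 95% binomial intervals of 20.5% to 27.4%, 12.3% to 20.7% and 24.8% to 32.2%. In mock 24 h its share was 0% of 103 reads, 2.92% of 137 and 0% of 115. The MeJA and mock shares did not overlap, and the exact two-sided permutation p was 0.100, the smallest that 3 against 3 libraries allow. These are shares of reads, not corrected for gene length. How often such shares do not overlap for other features was not computed. Bra013000 passed the filter on low counts through its MeJA libraries of 24 h, so its larger share there is no further support. At MeJA 72 h the summed level was 15.7 ± 3.87 CPM, all of it Bra029350.

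Responses of the copies were also compared in pairs, by the log2 ratio of 2 copies in each library, with labels permuted exactly within each time over 8000 regroupings. No pair of the 6 differed in its mean response over the 3 times after adjustment over the 6 pairs, at a pseudocount of 0.5 with all libraries. With a pseudocount of 2, 4 of the 6 passed, with adjusted p from 0.0165 to 0.0375. Without MeJA 10 min replicate 1, Bra013000 over Bra035954 and over Bra029349 passed (adjusted p = 0.0300 for each). All of the pairs that passed contain a copy with 7 counts, so their ratios largely follow the other copy and the pseudocount. When MeJA 10 min replicate 2 was left out instead, no pair passed by the same permutation test (adjusted p from 0.120 to 0.730). For Bra013000 over Bra029350, the 2 copies with more than 7 counts, the ratio was higher with MeJA by 1.53 on the log2 scale (exact p = 0.0880, adjusted p = 0.132). Within single times its values were 1.21 at 10 min, 5.03 at 24 h and -1.65 at 72 h. At 72 h Bra013000 was at 0 throughout, so the value there follows Bra029350 and the pseudocount of 0.5. Tested on its own, the 24 h value had an exact p of 0.100, the smallest that 3 against 3 libraries allow. For the other 5 pairs, which contain a copy with 7 counts, exact p ran from 0.0200 to 1.00 and adjusted p from 0.0750 to 1.00.

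The features whose levels were most like those of each copy were sought over the whole table. Likeness was Pearson's r of log2 CPM over the 18 libraries, among 23993 other features with a mean of at least 1 CPM. It is a description, since the libraries share treatment, time and scaling. Closest to Bra029350 were Bra039495 (r = 0.969), Bra008025 (r = 0.965) and Bra003778 (r = 0.965), for which the files give no names. Bra039495 stood at 60.2 CPM in MeJA 24 h and 7.12 CPM in mock 24 h, and at 24.6 and 6.67 CPM at 72 h, so that it too was above mock at both times. Bra008025 had the largest 24 h log2 fold change of the 3, 8.95, at 1238 CPM in MeJA 24 h and 2.50 CPM in mock, and still at 44.9 CPM in MeJA 72 h against 0.257 CPM in mock.

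Closest to Bra013000 were Bra012416 (r = 0.974), Bra037675 (r = 0.969) and Bra023084 (r = 0.966). Bra012416 stood at 33.0 ± 12.9 CPM (SD, n = 3) in MeJA 24 h and 2.97 ± 0.368 CPM in mock 24 h, and at 1.91 and 1.93 CPM at 72 h. Its log2 fold change was 3.47 at 24 h and -0.03 at 72 h. At 24 h Bra037675 stood at 92.8 CPM in mock and 383 CPM in MeJA, and Bra023084 at 89.6 and 236 CPM. These features were chosen on the same libraries, so their values describe the choice. At 72 h their log2 fold changes were 0.17 and 0.29.

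**Figure D4:**
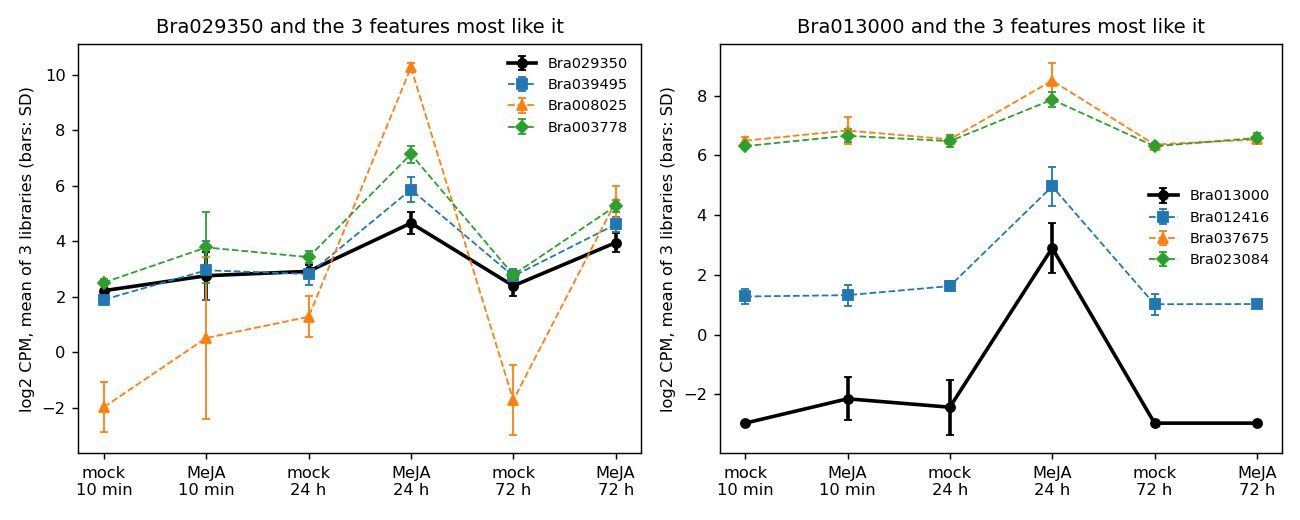
Mean log2 CPM of 3 libraries with its SD (y axis) by group (x axis), for Bra029350 and the 3 features most like it (left) and for Bra013000 and the 3 most like it (right). The features on the left are above mock after MeJA at both 24 h and 72 h, and those on the right peak in MeJA 24 h and have log2 fold changes between -0.03 and 0.29 at 72 h.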

How the data were processed

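The authors deposited unnormalised read counts per gene, in whole numbers. Tools named in the submitters' processing notes are FastQC, TopHat2, HTSeq and edgeR, with no roles. Not given in the sources used here are genome build, annotation, strand setting and the handling of reads shared by copies.

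The test was that of edgeR 4.0.16 (R 4.3.3): filterByExpr on the 6 groups, TMM scaling and 1 quasi-likelihood fit of 6 group means to all 18 libraries, with Benjamini-Hochberg adjustment over 26593 features and a threshold of 0.05. SE and 95% intervals were derived from each fold change and its F statistic and are approximate at low counts. CPM are counts per 1000000 of the TMM-scaled library size, and log2 CPM used a prior count of 2. A group at 0 was set to a floor of 3 counts. Binomial intervals are exact and cover counting error only. Ratios and bounds against a floor take the counts of the other group as exact.

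The members, the lists and the tests were chosen with earlier results of these data known. Features named beside the copies are the 3 with the highest r per tested copy. A list of indolic glucosinolate genes could not be filled, because identifiers and symbols are not paired in the sources used here. DESeq2 1.42.0 was an alternative, as were other scalings, no filter, fewer libraries, a replicate block and other pseudocounts. P-values measure the spread between these libraries, since separate plants are not stated.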

Additional observations from a re-analysis of the deposited data

How the results depend on the processing

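Of 406 values of the copies recomputed under alternatives, 387 kept their side of the threshold and, where it was checked, their direction. The 406 include changes of response of Bra013000 between times, which cannot decide, and pairs that contain a copy with 7 counts. The total is therefore no measure of how stable the remaining results are. For Bra013000 taken singly, direction was checked only for MeJA against mock at 24 h. Its other comparisons were checked by adjusted p alone, and alternatives that gave no adjusted p were left out. Under DESeq2 the 24 h rise of Bra013000 lost its call (log2 fold change 6.54), as did its rise from MeJA 10 min to MeJA 24 h (adjusted p = 0.0971); the cause was not tested. With only the libraries of 24 h and 72 h in the fit, the fall of Bra029350 between these times after MeJA was called (log2 fold change -0.70, adjusted p = 0.0492). Leaving out 1 library gave 0.75 to 1.70 for the change of its response from 10 min to 24 h, called without MeJA 10 min replicate 2, and 0.74 to 1.69 for its rise from MeJA 10 min to MeJA 72 h, not called without MeJA 10 min replicate 1 or 3 or MeJA 72 h replicate 2. With a pseudocount of 2, pair differences passed the threshold for Bra013000 over Bra035954 (1.75) and over Bra029349 (1.76). So did those for Bra035954 and Bra029349 over Bra029350 (-1.001 and -1.01). Each of these pairs contains a copy with 7 counts, so its ratio largely follows the other copy and the pseudocount. With 1 library left out the first 2 ran from 1.89 to 2.57 and from 2.06 to 2.53, both called without MeJA 10 min replicate 1 (adjusted p = 0.0300 each), and Bra035954 over Bra029349 turned sign, from -0.23 to 0.20.

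Same-numbered MeJA and mock libraries correlated over 0.1 in their deviations in 2 of 9 pairs (-0.21 to 0.29), and 4 of 9 MeJA libraries correlated best with their own number, so the numbers were not taken to pair them. The replicate block, fitted for MeJA against mock and for the changes of response between times, changed no call of Bra029350 or Bra013000 there, with a log2 fold change of 1.75 for Bra029350 and 6.35 for Bra013000 at 24 h. The block was fitted only to features that passed the filter on low counts. The features called over the whole table, 1895 at 10 min, 7588 at 24 h and 2589 at 72 h, ran with 1 library left out from 358 to 2769, from 5026 to 7612 and from 1023 to 2344. They were 411 at 10 min without MeJA replicate 2, 562 at 10 min with mock replicates 2 and 3 summed, and 4818 at 24 h with only that time's libraries. Scaling by totals moved the median log2 fold change of all features at 24 h from -0.01 to -0.13 and left Bra029350 at 1.66 there. Under it, rises were 85.7%, 33.7% and 74.1% of the calls at the 3 times, against 65.9%, 54.0% and 62.8%.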

Other observations

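In 5 of the 6 groups, Bra029350 was highest in replicate 2 and lowest in replicate 1, and in MeJA 24 h replicate 1 was highest and replicate 2 lowest. This was noticed in the data and was not tested.

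The MeJA libraries also differed in how far the other responding features stood above mock. Over 1248 features called higher at 10 min, the median log2 difference from mock was 1.01, 1.40 and 0.70 in MeJA replicates 1, 2 and 3, against -0.22, 1.47 and 0.35 for Bra029350. Over 4096 features other than the copies at 24 h, the medians were 0.71, 0.65 and 0.84, with replicate 2 lowest, as it was for both Bra029350 and Bra013000. The median was highest in replicate 3, as was Bra013000, while Bra029350 (2.10, 1.30 and 1.81) was highest in replicate 1. At 72 h the medians over 1624 features were 0.85, 0.88 and 0.62, with replicate 2 highest, as for Bra029350. The median was lowest in replicate 3, while Bra029350 (1.31, 1.94 and 1.42) was lowest in replicate 1. Features were selected on these same libraries, so the medians describe them only.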
